A study of Mus musculus with 9 samples.

Results

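The matrix metalloproteinases (Mmp genes), the Adamts proteases and their tissue inhibitors (Timp genes) were followed through carbon tetrachloride injury of the mouse liver. Members were the rows of the deposited gene table whose symbol is Mmp, Adamts or Timp with a number, which gave 46 of 34745 genes, namely 23 Mmp, 19 Adamts and 4 Timp genes. The choice went by symbol alone. Of these, 31 passed the filter on low counts and were tested, and 15 did not.

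Messenger RNA of 9 libraries was sequenced, in 3 groups of 3, all from 12-week C57BL/6 mice. KO CCl4 (libraries 72, 75 and 79) is the series' Tgfbr2HKO genotype given carbon tetrachloride (CCl4), WT CCl4 (11, 12 and 13) its Tgfbr2f/f genotype given CCl4, and WT NC (1, 2 and 3) the Tgfbr2f/f genotype labelled NC. Tgfbr2 encodes the type II receptor for TGF-beta, and f/f animals carry a floxed but working gene. The sources used here state neither how HKO was made nor what NC received, and no KO library without CCl4 was analysed. CCl4 was given at 0.25 ml/kg in olive oil by intraperitoneal injection, 2 times a week for 4 weeks. It is a solvent that hepatocytes convert into a toxic radical, and repeated doses scar the rodent liver.

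Matrix metalloproteinases are zinc enzymes that are made as inactive precursors and cut collagens, elastin, basement membrane and cell surface proteins. Adamts enzymes trim procollagen or cut proteoglycans such as versican and aggrecan. Timp proteins bind the active site of these enzymes and block it, and in scarring liver the balance between proteases and inhibitors bears on how much matrix stays. TGF-beta is known for raising matrix production and several inhibitors in liver stellate cells, the collagen-making cells of the organ.

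The libraries labelled KO were unlike each other, which touches each result on them. Tgfbr2 itself stood at 23.5, 69.9 and 28.3 CPM (TMM-scaled CPM, the unit of every level below unless FPKM is named) in KO CCl4 72, 75 and 79, at 127, 90.5 and 75.2 CPM in WT CCl4, and at 31.5, 30.2 and 38.6 CPM in WT NC. It did not pass the threshold between KO CCl4 and WT CCl4 (log2 fold change -1.26 ± 0.39 SE, adjusted p = 0.0759 by edgeR's quasi-likelihood test), and did without KO CCl4 75 (-1.91 ± 0.24, adjusted p = 0.0011). Where the deleted part of the gene lies is not given, so these reads are a limited check of the labels. Where a member's call between KO CCl4 and WT CCl4 changed without KO CCl4 75, its change or adjusted p in that fit is given too. For KO CCl4 over WT NC, the members whose call changed in that fit are named.

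Marker lists moved as well, although the labels name hepatocyte beside liver. Macrophage markers (8 of 8 measured) summed to 585 to 3725 CPM in KO CCl4, 2453 to 6206 CPM in WT CCl4 and 362 to 472 CPM in WT NC. Stellate cell and myofibroblast markers (10 of 10) summed to 178 to 1183 CPM in KO CCl4, 1258 to 2370 CPM in WT CCl4 and 88.0 to 152 CPM in WT NC. Markers from outside the liver lobule were present too: those of mesothelium, the lining of the abdominal organs (5 of 5), summed to 3.58 to 26.2 CPM in KO CCl4, 36.2 to 151 CPM in WT CCl4 and 0 to 0.199 CPM in WT NC, where Upk3b, Lrrn4 and Muc16 were at 0. Exocrine pancreas markers (7 of 7) reached 23.7 to 172 CPM in KO CCl4, 9.06 to 1143 CPM in WT CCl4 and 0.276 to 3.41 CPM in WT NC, where Cela3b was at 0. Hepatocyte markers (6 of 6) summed to 73492 to 88838 CPM in KO CCl4, 38563 to 64888 CPM in WT CCl4 and 90058 to 110385 CPM in WT NC. In tissue libraries fewer cells of a type and less RNA per cell cannot be told apart, and the part of these markers in the results below was not tested.

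**Figure D1:**
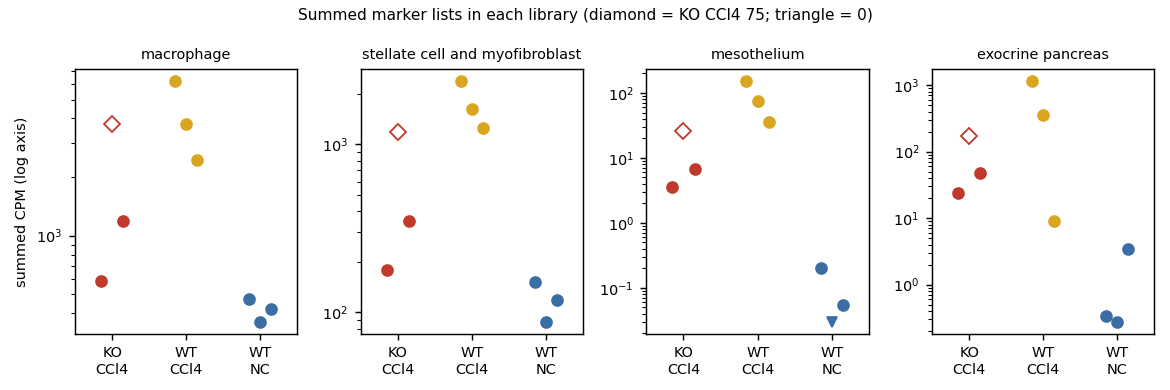
Summed CPM (log axis) of 4 marker lists in each library, by group, with each point 1 library and the open diamond KO CCl4 75. Mesothelium markers lie at 36.2 CPM or more in WT CCl4 and at 26.2 CPM or less in KO CCl4.

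Under CCl4, WT livers carried more protease and more inhibitor transcripts than WT NC livers. Of the 31 members tested, 25 rose and 0 fell at an adjusted p below 0.05, while 29.5% of all 14134 genes tested rose and 25.0% fell (54.4% in either direction). At an unadjusted p under 0.05 the edgeR count of members lower in WT CCl4 was also 0, as it was with DESeq2 and limma after adjustment. All WT CCl4 libraries lay above all WT NC libraries in 25 members, where 34.7% of all genes did, and below them in 1, where 31.6% did. The risers comprised 12 of 15 Mmp genes, 10 of 13 Adamts genes and 3 of 3 Timp genes. Mmp12 (macrophage elastase), Mmp13 (the main interstitial collagenase of rodents) and Adamts4 (an aggrecan-cutting enzyme) changed the most among those with 5 CPM or more, and Mmp19 the least. The median log2 fold change of the members tested was 3.35, against 0.04 over all genes tested, and 2.83 with Adamts19 and Mmp24, which were at 0 in WT NC, set at the bound a floor of 3 counts allows. Low genes passed the filter through the WT CCl4 libraries: 28 of the 31 had 10 or more counts in every WT CCl4 library, 24 in every KO CCl4 library and 13 in every WT NC library, so these counts describe the members measured.

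Between the genotypes under CCl4, the comparison that the series names, 4 members fell in KO CCl4 and 0 rose, where 1.61% of all genes tested fell and 3.46% rose. They were Timp3, the matrix-bound inhibitor, Adamts1, a versican-cutting enzyme, Mmp12 and Mmp13. At an unadjusted p under 0.05 edgeR gave 14 lower and 0 higher. After adjustment DESeq2 gave 12 lower and 1 higher (Mmp7, below edgeR's filter). No share over all genes stands beside these counts, since the shares above are for edgeR's adjusted p. The fitted change was negative in all 31 members tested, with a median log2 fold change of -1.18 against -0.03 over all genes. Mmp11 (-0.014) and Mmp15 (-0.021) were close to no change. Low genes passed the filter mainly through WT CCl4, so the filter can favour this direction. The share of all genes with a negative change is not given. All KO CCl4 libraries lay below all WT CCl4 libraries in 13 of the 31, including 3 of 3 Timp genes, where 15.8% of all genes did, and above them in 0, where 15.8% of all genes did. Without KO CCl4 75 19 of 30 tested were lower, against 20.4% of all genes lower in that fit, and 0 higher, against 17.2%. Of the 4 calls, only that of Timp3 held in most fits that left out 1 library (6 of 9, lost without KO CCl4 72, KO CCl4 79 or WT CCl4 12). Mmp12, Adamts1 and Mmp13 kept theirs in 2 of 9, those without KO CCl4 75 and without WT CCl4 13.

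KO CCl4 against WT NC, which differ in both genotype and treatment, gave 14 members higher and 0 lower, where 14.0% of all genes were higher and 8.98% lower. At an unadjusted p under 0.05 edgeR gave 19 higher and 0 lower, and after adjustment DESeq2 gave 19 and 0. Here too the shares over all genes are for edgeR's adjusted p only. The 14 were 8 Mmp genes (Mmp2, Mmp12, Mmp13, Mmp14, Mmp19, Mmp24, Mmp25 and Mmp27), 5 Adamts genes (Adamts1, Adamts4, Adamts9, Adamts12 and Adamts15) and Timp1. Without KO CCl4 75 the count was 7 of 30, against 9.93% of all genes higher, and 0 lower, against 7.37%; Mmp2, Mmp13, Mmp25, Mmp27, Adamts4 and Timp1 then missed the threshold, and Mmp24 was below the filter. The 3 comparisons share libraries by pairs, so their values for a gene are not independent of each other.

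**Figure D2:**
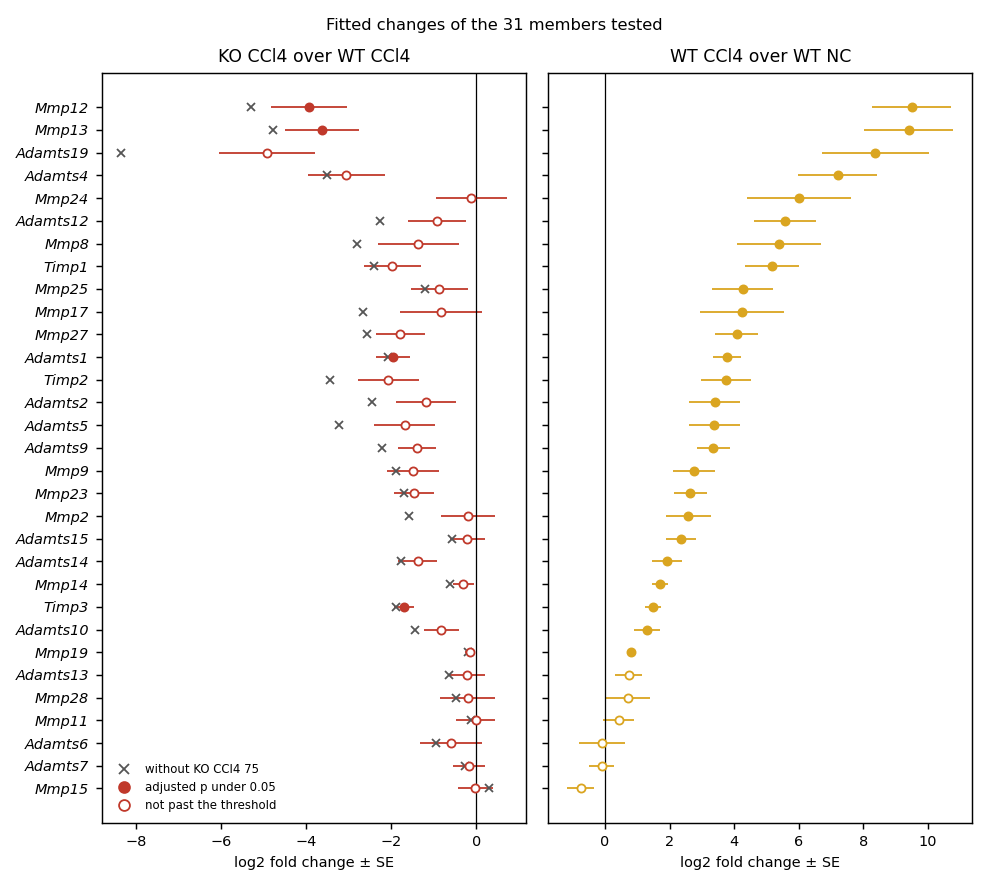
Log2 fold change ± SE of the 31 members tested, KO CCl4 over WT CCl4 at left and WT CCl4 over WT NC at right; filled points passed an adjusted p of 0.05, and crosses are the fit without KO CCl4 75. At right 25 points are filled, all above 0; at left 4 are filled, all below 0.

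Among the inhibitors, Timp3 differed most clearly between the genotypes. Timp3, which stays bound to the matrix and also blocks Adamts enzymes, had 26.4, 38.2 and 26.7 CPM in KO CCl4, against 127, 90.6 and 78.0 CPM in WT CCl4, and 35.5, 29.9 and 40.4 CPM in WT NC. Every KO CCl4 library was thus within or near the range of WT NC and far below WT CCl4, KO CCl4 75 included. It fell in KO CCl4 against WT CCl4 (log2 fold change -1.70 ± 0.23 SE, adjusted p = 0.0168), and rose in WT CCl4 against WT NC (1.48 ± 0.23, adjusted p = 0.00139). Between KO CCl4 and WT NC it did not pass the threshold (-0.21 ± 0.23, adjusted p = 0.528). Without KO CCl4 75 the genotype difference was -1.89 (adjusted p = 0.000997), and without WT CCl4 11, the library with the highest mesothelium and pancreas sums, -1.47 (adjusted p = 0.0475). That call was lost without KO CCl4 72, KO CCl4 79 or WT CCl4 12, and with only the 6 libraries compared.

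Timp2, a secreted inhibitor that also joins Mmp14 in activating Mmp2 at the cell surface, was far less even within KO. It had 6.68, 63.6 and 15.4 CPM in KO CCl4, against 186, 105 and 67.8 CPM in WT CCl4, and 11.6, 8.27 and 7.09 CPM in WT NC. KO CCl4 72 was below the lowest WT NC library, while KO CCl4 75 came close to the lowest WT CCl4 library. The rise in WT CCl4 over WT NC was 3.74 ± 0.78 on the log2 scale (adjusted p = 0.00398). KO CCl4 against WT CCl4 gave -2.06 ± 0.72 (adjusted p = 0.097), and without KO CCl4 75 a change of -3.43 (adjusted p = 0.002).

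Timp1, the secreted inhibitor commonly measured as a sign of liver scarring, was the lowest of the Timp genes tested. Its levels were 1.07, 2.92 and 1.76 CPM in KO CCl4, against 13.6, 6.02 and 3.16 CPM in WT CCl4, and 0.266, 0 and 0.32 CPM in WT NC. The groups did not overlap, with KO CCl4 in between, and WT CCl4 varied most. It rose in WT CCl4 over WT NC (5.18 ± 0.85, adjusted p = 0.0016) and in KO CCl4 over WT NC (3.21 ± 0.84, adjusted p = 0.0274). The call over WT NC in KO CCl4 was lost in 5 of 9 fits that left out 1 library, among them the fit without KO CCl4 75 (2.76, adjusted p = 0.0617). KO CCl4 against WT CCl4 missed the threshold (-1.97 ± 0.67, adjusted p = 0.0911) and passed it without KO CCl4 75 (-2.41, adjusted p = 0.0287). Timp4 had 1 read in KO CCl4 75 (0.0471 CPM) and 0 in the other libraries, where 3 counts would have stood for 0.147 to 0.182 CPM.

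Among collagenases, the enzymes able to cut intact fibrillar collagen, Mmp13 had 1.01, 5.47 and 1.32 CPM in KO CCl4, against 65.3, 25.0 and 7.53 CPM in WT CCl4, and 0, 0 and 0.107 CPM in WT NC. The WT NC libraries held 2 Mmp13 counts together, and the pooled ratio of WT CCl4 to WT NC was 794 (95% exact binomial interval 219 to 6560, counting error only). KO CCl4 lay below WT CCl4 in every library, although WT CCl4 13 and KO CCl4 75 were close. The fall in KO CCl4 against WT CCl4 was -3.63 ± 0.87 (adjusted p = 0.0493), and -2.63 with an adjusted p of 0.159 without WT CCl4 11. Mmp8, the neutrophil collagenase, had 0.238, 4.15 and 1.10 CPM in KO CCl4, against 7.89, 4.00 and 2.37 CPM in WT CCl4, and 0, 0.345 and 0 CPM in WT NC. It rose in WT CCl4 over WT NC (5.39 ± 1.31, adjusted p = 0.00779), and all its WT NC reads came from WT NC 2, without which the fitted change was 9.47. KO CCl4 overlapped WT CCl4 (-1.36 ± 0.96, adjusted p = 0.339), and without KO CCl4 75 Mmp8 was lower in KO CCl4 (-2.80, adjusted p = 0.0415). Neutrophil markers (9 of 9 measured) summed to 21.4 to 29.2 CPM in KO CCl4, 16.6 to 46.8 CPM in WT CCl4 and 1.49 to 4.19 CPM in WT NC, where Ly6g, Mpo and Ngp were at 0; their part was not tested. Mmp1a and Mmp1b had 0 counts in all 9 libraries.

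Macrophage elastase, Mmp12, cuts elastin and is known from macrophages. It had 2.62, 37.8 and 10.6 CPM in KO CCl4, against 393, 222 and 164 CPM in WT CCl4, and 0.731, 0 and 0.32 CPM in WT NC. The groups did not overlap, and the lowest WT CCl4 library was above the highest KO CCl4 library, KO CCl4 75. Mmp12 rose in WT CCl4 over WT NC (9.50 ± 1.24, adjusted p = 0.000864), fell in KO CCl4 against WT CCl4 (-3.93 ± 0.90, adjusted p = 0.0471) and rose in KO CCl4 over WT NC (5.57 ± 1.13, adjusted p = 0.0114). Its fall in KO CCl4 lost the threshold without WT CCl4 11 (-3.50, adjusted p = 0.138). Beside it, macrophage markers as a list had 8 of 8 genes higher in WT CCl4 over WT NC and 0 of 8 called between KO CCl4 and WT CCl4, where without KO CCl4 75 7 of 8 were lower.

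Of the gelatinases, which cut denatured collagen and basement membrane, Mmp2 separated KO CCl4 75 from the rest. It stood at 1.79, 17.7 and 4.23 CPM in KO CCl4, against 9.41, 9.73 and 8.21 CPM in WT CCl4, and 1.66, 1.45 and 1.44 CPM in WT NC. KO CCl4 75 was above every WT CCl4 library, and the other KO libraries below every one. The difference between KO CCl4 and WT CCl4 was -0.20 ± 0.64 (adjusted p = 0.847) and, without KO CCl4 75, a change of -1.59 (adjusted p = 0.00838). The rise in WT CCl4 over WT NC was 2.58 ± 0.71 (adjusted p = 0.0134). Mmp9 had 1.61, 2.73 and 1.15 CPM in KO CCl4, against 8.40, 4.49 and 2.58 CPM in WT CCl4, and 0.731, 0.207 and 1.28 CPM in WT NC. It rose in WT CCl4 over WT NC (2.76 ± 0.66, adjusted p = 0.00708), while KO CCl4 overlapped both groups (adjusted p = 0.135 against WT CCl4).

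Membrane-type metalloproteinases sit on the cell surface. Mmp14, which activates pro-Mmp2 and cuts collagen, had 41.3, 77.2 and 46.8 CPM in KO CCl4, against 83.5, 66.1 and 53.9 CPM in WT CCl4, and 19.8, 22.5 and 20.5 CPM in WT NC. It was higher than WT NC in both CCl4 groups, by 1.40 ± 0.26 in KO CCl4 (adjusted p = 0.00805) and by 1.70 ± 0.26 in WT CCl4 (adjusted p = 0.00128), and KO CCl4 overlapped WT CCl4 (-0.30 ± 0.25, adjusted p = 0.42). Without KO CCl4 75 Mmp14 was lower in KO CCl4 than in WT CCl4 (-0.62, adjusted p = 0.0328). Mmp15, another membrane-type enzyme, was the one member whose WT CCl4 libraries all lay below those of WT NC: 36.5, 13.4 and 30.2 CPM in KO CCl4, 15.5, 30.0 and 35.7 CPM in WT CCl4, and 37.6, 38.8 and 61.2 CPM in WT NC. That difference did not pass the test (-0.76 ± 0.41, adjusted p = 0.141), and 31.6% of all genes lay lower in this way. Hepatocyte markers were lowest in KO CCl4 75 and WT CCl4 11 within their groups, as was Mmp15; their part was not tested. Mmp17 had 0, 1.74 and 0.385 CPM in KO CCl4, against 1.06, 1.43 and 1.37 CPM in WT CCl4, and 0.0664, 0 and 0.107 CPM in WT NC, where 3 counts were read in all. Its pooled ratio of WT CCl4 to WT NC was 20.7 (95% interval 6.83 to 103), it rose (adjusted p = 0.0219), and the call was lost in 4 of 9 fits that left out 1 library.

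Mmp19, a secreted enzyme of broad substrates, was the steadiest member. It had 100.1, 111 and 105 CPM in KO CCl4, against 120, 117 and 113 CPM in WT CCl4, and 63.1, 65.8 and 70.0 CPM in WT NC. Both CCl4 groups were above WT NC, by 0.67 ± 0.12 in KO CCl4 (adjusted p = 0.00839) and by 0.81 ± 0.12 in WT CCl4 (adjusted p = 0.00128). KO CCl4 lay just below WT CCl4 in every library, a difference that did not pass the test (-0.15 ± 0.12, adjusted p = 0.419). Mmp23 had 1.01, 2.07 and 1.70 CPM in KO CCl4, against 6.48, 4.15 and 2.63 CPM in WT CCl4, and 0.997, 0.758 and 0.373 CPM in WT NC. Mmp27 had 1.85, 8.81 and 3.68 CPM in KO CCl4, against 25.3, 14.7 and 9.90 CPM in WT CCl4, and 1.53, 0.552 and 0.853 CPM in WT NC. Both rose in WT CCl4 over WT NC (2.64 ± 0.50 and 4.08 ± 0.66) and had KO CCl4 below WT CCl4 in every library, short of the threshold (adjusted p = 0.0792 and 0.0803). Without KO CCl4 75 both passed it (Mmp23 -1.69, adjusted p = 0.0319, and Mmp27 -2.58, adjusted p = 0.0058).

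**Figure D3:**
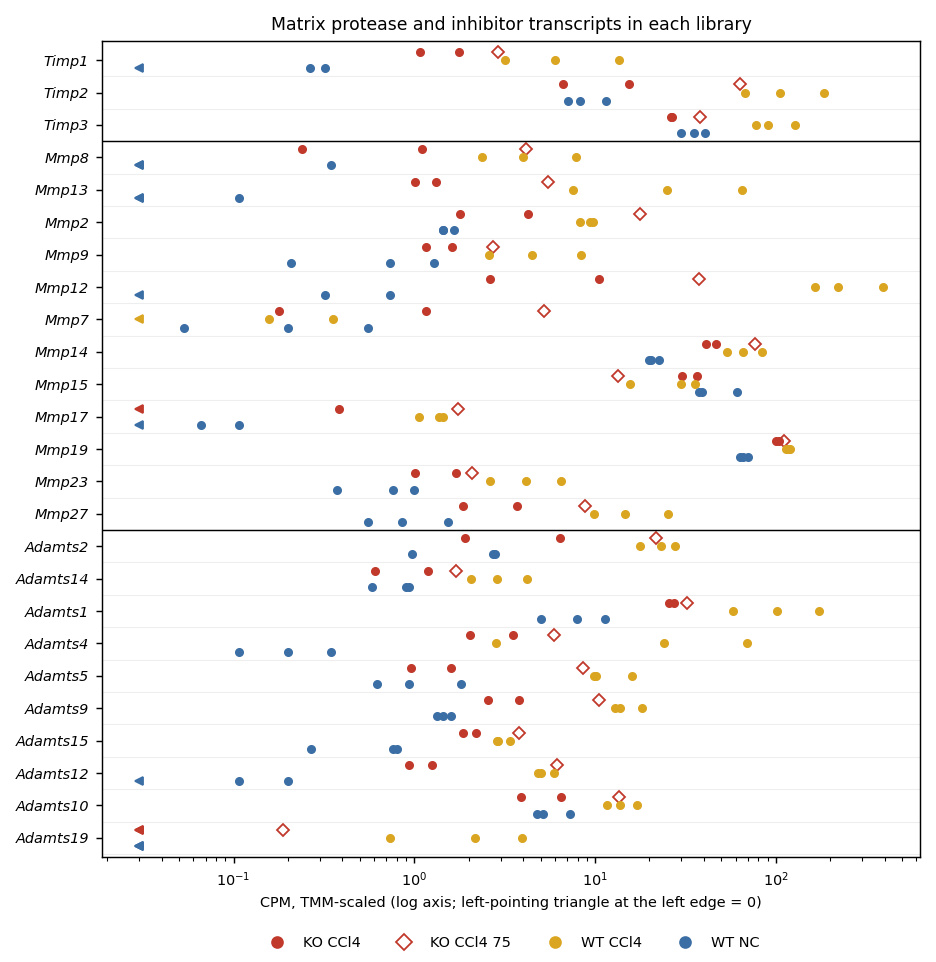
CPM (log axis) of 25 members in each library, grouped as Timp, Mmp and Adamts genes from top to bottom, with KO CCl4 above WT CCl4 above WT NC in each row and KO CCl4 75 as an open diamond. For Timp3 all KO CCl4 points lie at 38.2 CPM or less and all WT CCl4 points at 78.0 CPM or more, while for Mmp2 the diamond at 17.7 CPM lies above the WT CCl4 points.

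Of the 7 proteoglycan-cutting Adamts enzymes 5 were tested, and these 5 all rose in WT CCl4 over WT NC. Adamts1 had 27.2, 32.4 and 25.6 CPM in KO CCl4, against 174, 101 and 58.3 CPM in WT CCl4, and 7.91, 5.03 and 11.4 CPM in WT NC. The KO CCl4 libraries were close to each other and lay between the other groups, with no overlap. It fell in KO CCl4 against WT CCl4 (-1.97 ± 0.40, adjusted p = 0.0401), rose in KO CCl4 over WT NC (1.80 ± 0.41, adjusted p = 0.0165) and rose in WT CCl4 over WT NC (3.77 ± 0.43, adjusted p = 0.000601). Adamts4 had 2.03, 5.94 and 3.52 CPM in KO CCl4, against 68.9, 24.2 and 2.84 CPM in WT CCl4, and 0.199, 0.345 and 0.107 CPM in WT NC. WT CCl4 13 thus lay within KO CCl4, and the genotype difference missed the threshold (-3.05 ± 0.91, adjusted p = 0.0707) while the rise over WT NC passed it in WT CCl4 (7.21 ± 1.23, adjusted p = 0.00181). The genotype difference of Adamts4 passed without KO CCl4 75 (-3.52, adjusted p = 0.0302), and without WT CCl4 11 it was -1.81 (adjusted p = 0.241). Its order of WT CCl4 libraries, 11 over 12 over 13, was that of every marker sum except those of hepatocytes and proliferation. It was also common among the 26 members given by library, where 11 was highest in 21 and 13 lowest in 21. The part of the marker lists was not tested.

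Adamts5 had 0.954, 8.58 and 1.59 CPM in KO CCl4, against 16.0, 10.2 and 9.85 CPM in WT CCl4, and 0.93, 0.621 and 1.81 CPM in WT NC. Adamts9 stood at 2.56, 10.6 and 3.79 CPM in KO CCl4, against 18.2, 13.7 and 13.0 CPM in WT CCl4, and 1.59, 1.45 and 1.33 CPM in WT NC. In both, KO CCl4 75 approached the WT CCl4 libraries and the other KO libraries did not. Their rises in WT CCl4 over WT NC were 3.39 ± 0.80 (adjusted p = 0.00674) and 3.35 ± 0.50 (adjusted p = 0.00122), and the genotype difference missed the threshold with all libraries (adjusted p = 0.148 and 0.0816) and passed it without KO CCl4 75 (-3.22 for Adamts5, adjusted p = 0.00184, and -2.23 for Adamts9, adjusted p = 0.000877). Adamts15 had 2.21, 3.82 and 1.87 CPM in KO CCl4, against 3.39, 2.86 and 2.90 CPM in WT CCl4, and 0.797, 0.758 and 0.267 CPM in WT NC. It was higher than WT NC by 2.13 ± 0.46 in KO CCl4 (adjusted p = 0.0149) and by 2.34 ± 0.46 in WT CCl4 (adjusted p = 0.00328), with KO CCl4 and WT CCl4 overlapping (-0.21 ± 0.42, adjusted p = 0.748).

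The procollagen N-proteinases cut the end off new collagen chains so that fibrils can form. Adamts2 had 1.91, 21.9 and 6.38 CPM in KO CCl4, against 27.6, 23.3 and 17.8 CPM in WT CCl4, and 2.79, 0.965 and 2.72 CPM in WT NC. Adamts14 had 1.19, 1.70 and 0.605 CPM in KO CCl4, against 2.88, 4.20 and 2.05 CPM in WT CCl4, and 0.93, 0.896 and 0.587 CPM in WT NC. KO CCl4 75 sat inside the WT CCl4 range for Adamts2, and KO CCl4 72 inside the WT NC range. Both genes rose in WT CCl4 over WT NC (3.39 ± 0.78, adjusted p = 0.00627, and 1.92 ± 0.47, adjusted p = 0.00818), and neither passed the test between KO CCl4 and WT CCl4 (adjusted p = 0.267 and 0.0847), where without KO CCl4 75 both fell (-2.46 and -1.76). The third of these enzymes, Adamts3, was below the filter, with 30 counts in KO CCl4, 27 in WT CCl4 and 0 in WT NC. DESeq2 called it higher than WT NC in KO CCl4 (adjusted p = 0.0159) and in WT CCl4 (adjusted p = 0.00997); edgeR without the filter did so in WT CCl4 (adjusted p = 0.0384) and not in KO CCl4 (adjusted p = 0.0649).

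Other Adamts enzymes have other substrates. Adamts12, which cuts the cartilage protein COMP, had 1.25, 6.13 and 0.935 CPM in KO CCl4, against 5.92, 5.04 and 4.84 CPM in WT CCl4, and 0.199, 0 and 0.107 CPM in WT NC. It rose over WT NC in both CCl4 groups (4.67 ± 0.96 in KO CCl4, adjusted p = 0.012; 5.58 ± 0.96 in WT CCl4, adjusted p = 0.00185), and KO CCl4 75 was above every WT CCl4 library. Between KO CCl4 and WT CCl4 it did not pass the test (-0.91, adjusted p = 0.366), and did without KO CCl4 75 (-2.26, adjusted p = 0.00666). Adamts10, an enzyme of fibrillin microfibrils, had 3.88, 13.6 and 6.49 CPM in KO CCl4, against 17.0, 13.7 and 11.7 CPM in WT CCl4, and 7.31, 4.76 and 5.17 CPM in WT NC, a rise of 1.30 ± 0.42 in WT CCl4 (adjusted p = 0.0256) that was lost in 4 of 9 fits that left out 1 library. Its genotype difference was -0.82 (adjusted p = 0.198), and -1.44 without KO CCl4 75 (adjusted p = 0.00719). Adamts19 had 0, 0.189 and 0 CPM in KO CCl4, against 3.95, 2.17 and 0.737 CPM in WT CCl4, and 0 in every WT NC library. Its level was thus at least 37.1-fold higher in WT CCl4 than in WT NC, counted against a floor of 3 reads over the group, and KO CCl4 against WT CCl4 was just short of the threshold (adjusted p = 0.0536) and passed it without KO CCl4 75 (adjusted p = 0.0117), when both remaining KO libraries were at 0.

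Of the other 7 tested members, Mmp24 and Mmp25, membrane-type enzymes, rose in WT CCl4 over WT NC (adjusted p = 0.0167 and 0.00496) at 1.72 CPM or less in every library, and Mmp24 had no read in WT NC. Mmp11, Mmp28, Adamts6, Adamts7 and Adamts13 did not pass the test in any comparison, with adjusted p of 0.176 or more for WT CCl4 over WT NC. Adamts7, which like Adamts12 cuts COMP, had 5.07 to 7.07 CPM in KO CCl4, 5.57 to 8.21 CPM in WT CCl4 and 4.14 to 12.5 CPM in WT NC. Adamts13, which cuts von Willebrand factor and is made by stellate cells, had 1.97 to 4.81 CPM in KO CCl4, 2.43 to 4.79 CPM in WT CCl4 and 1.52 to 3.04 CPM in WT NC, so the groups overlapped.

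Mmp7, matrilysin, was below the filter, and 1 library carried most of its reads. It had 0.179, 5.23 and 1.15 CPM in KO CCl4, against 0.354, 0 and 0.158 CPM in WT CCl4, and 0.199, 0.552 and 0.0533 CPM in WT NC. DESeq2's Wald test, which applied no such filter, called it higher in KO CCl4 against WT CCl4 (log2 fold change 3.67, adjusted p = 0.0298), and edgeR without the filter did not (3.65, adjusted p = 0.101). Bile duct is a cell type in which matrilysin is known. Its markers (6 of 6 measured) summed to 64.8 to 195 CPM in KO CCl4, 168 to 418 CPM in WT CCl4 and 61.9 to 66.2 CPM in WT NC. Most of these sums came from Spp1, at means of 105 CPM in KO CCl4, 254 CPM in WT CCl4 and 56.6 CPM in WT NC. Spp1 was also listed as a marker of monocyte-derived macrophages. Of the 5 tested in WT CCl4 over WT NC, 3 rose and 0 fell, with Epcam at 1.02 against 2.03 CPM. The sums are thus a weak measure of bile duct cells, and their part was not tested. The other 9 untested members with any read reached at most 22 counts and 1.04 CPM in a library, and 5 (Mmp1a, Mmp1b, Mmp20, Mmp21 and Adamts18) had no read at all.

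Set against each other per length, in FPKM, Mmp genes and inhibitors did not move in step. The summed Mmp level was 40.3, 82.6 and 46.9 FPKM in KO CCl4, against 160.3, 112 and 89.5 FPKM in WT CCl4, and 29.8, 29.4 and 37.8 FPKM in WT NC. The summed Timp level was 4.47, 25.0 and 7.13 FPKM in KO CCl4, against 81.2, 46.5 and 31.1 FPKM in WT CCl4, and 6.36, 4.60 and 6.14 FPKM in WT NC. The ratio of the sums was 9.02, 3.30 and 6.58 in KO CCl4, against 1.97, 2.41 and 2.88 in WT CCl4, and 4.69, 6.39 and 6.16 in WT NC. Per length, Mmp transcripts relative to their inhibitors were thus lowest in the WT CCl4 libraries, which overlapped neither of the other groups, and KO CCl4 72 and 79 were above every WT NC library with KO CCl4 75 below them all. On the log2 scale the ratio averaged 2.54 ± 0.74 in KO CCl4, 1.26 ± 0.27 in WT CCl4 and 2.51 ± 0.24 in WT NC (SD, n = 3 each), as a description with no test. On summed CPM, which is not per length, the ratio was 5.56, 2.78 and 4.76 in KO CCl4, against 2.27, 2.48 and 2.71 in WT CCl4, and 2.69, 3.47 and 3.28 in WT NC, so that WT CCl4 13 lay above WT NC 1 and the CCl4 and NC groups of WT overlapped. The summed Adamts level was 6.04, 17.5 and 7.38 FPKM in KO CCl4, against 61.7, 35.4 and 20.7 FPKM in WT CCl4, and 3.45, 2.43 and 4.78 FPKM in WT NC. Its group means were 10.3 FPKM in KO CCl4, 39.3 FPKM in WT CCl4 and 3.55 FPKM in WT NC. Those of the Timp sum were 12.2, 52.9 and 5.70 FPKM in the same order. The Adamts sum thus rose in WT CCl4 along with the Timp sum, and the ratio above describes the Mmp genes alone.

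Mmp19 had the highest mean FPKM of the members in every group, which weighs on that ratio. In WT NC it averaged 17.7 ± 1.62 FPKM, followed without overlap by Mmp15 (9.69 ± 3.25 FPKM) and then by Timp3 (3.57 ± 0.71 FPKM) and Mmp14 (3.30 ± 0.14 FPKM), which did not differ beyond their spread. In WT CCl4 the order was Mmp19 (39.5 ± 1.76 FPKM), Timp2 (33.9 ± 17.6 FPKM), Mmp12 (30.2 ± 14.3 FPKM), Adamts1 (20.4 ± 11.0 FPKM), Mmp13 (14.2 ± 13.0 FPKM), Mmp14 (13.6 ± 3.22 FPKM) and Timp3 (12.6 ± 3.49 FPKM), with each gene's libraries overlapping those of the next. In KO CCl4 Mmp19 (29.8 ± 6.62 FPKM) stood apart, and Mmp14 (9.51 ± 5.04 FPKM), Timp2 (7.50 ± 8.94 FPKM) and Mmp15 (5.59 ± 1.85 FPKM) followed with overlap. Leaving Mmp19 out, the ratio of Mmp to Timp was 3.50, 1.81 and 2.74 in KO CCl4, against 1.47, 1.55 and 1.67 in WT CCl4, and 2.02, 2.77 and 2.97 in WT NC, so in FPKM WT CCl4 was still lowest, with KO CCl4 75 the nearest to it. The makeup of the inhibitors differed as well: Timp2 gave 30.6% to 71.0% of summed Timp FPKM in KO CCl4, 60.3% to 65.5% in WT CCl4 and 26.9% to 40.7% in WT NC, and Timp1 gave 8.31% to 14.2% in WT CCl4. Mmp12 gave 0.549% to 5.25% of summed Mmp FPKM in KO CCl4, 20.8% to 28.9% in WT CCl4 and 0% to 0.226% in WT NC.

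**Figure D4:**
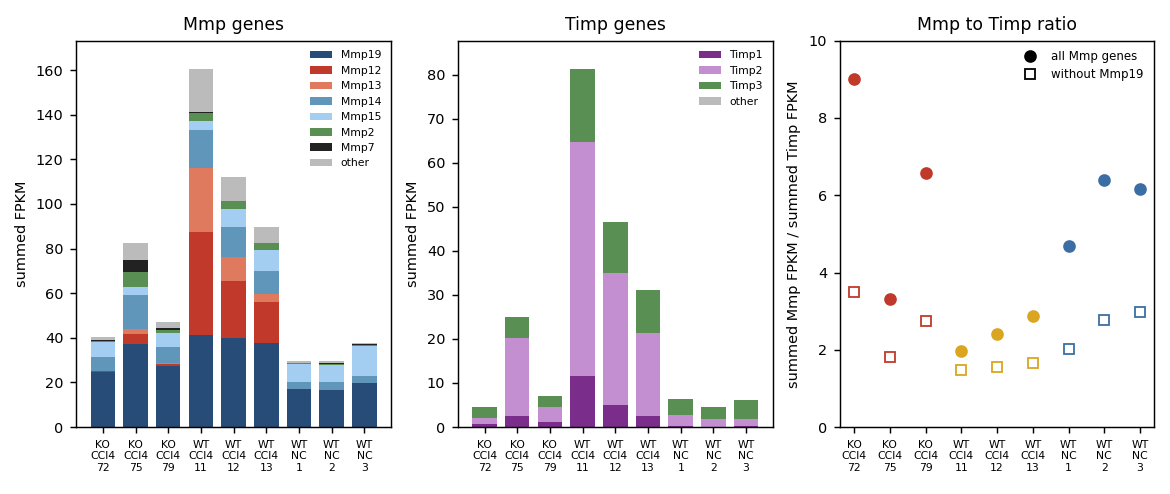
Summed FPKM of the Mmp genes (left) and the Timp genes (middle) as stacked bars, and the ratio of the sums (right), for each library. The ratio lies between 1.97 and 2.88 in WT CCl4, and at 3.30 or more in the other libraries.

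Most of the 26 members given by library (Timp4 and Mmp7 included) were chosen for a difference in which WT CCl4 was high. A place below WT CCl4 is thus partly built into that choice. The position counts that follow describe these members only, with no share over all genes beside them. Across the 26, KO CCl4 72 and 79 were both below the WT CCl4 range in 22. KO CCl4 75 was below that range in 14, within it in 6 (Adamts2, Adamts4, Adamts10, Mmp8, Mmp9 and Mmp14) and above it in 6 (Adamts12, Adamts15, Mmp2, Mmp7, Mmp17 and Timp4). It was the highest KO library in 25 of the 26, Mmp15 being the exception. Timp4 enters both of these counts on 1 read, under the floor of 3 counts. Among the 14 were Timp1, Timp2 and Timp3. Within WT CCl4, library 11 was the highest in 21 of the 26, and it also had the highest macrophage, stellate, mesothelium and pancreas sums. Without WT CCl4 11, 24 members were higher in WT CCl4 over WT NC, and 1, Timp3, was lower in KO CCl4 against WT CCl4. The share over all genes is not given for that fit.

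A cluster of 10 Mmp genes spans 427.1 kb of chromosome 9 (7272514 to 7699585 in the deposited mm10 coordinates), in the order Mmp13, Mmp12, Mmp1b, Mmp3, Mmp1a, Mmp10, Mmp8, Mmp27, Mmp20 and Mmp7. In WT CCl4 over WT NC 4 of these rose, namely Mmp13, Mmp12, Mmp8 and Mmp27, and the other 6 were too low to test. Mean levels for the risers were 2.60, 17.0, 1.83 and 4.78 CPM in KO CCl4, 32.6, 259.5, 4.75 and 16.6 CPM in WT CCl4, and 0.0356, 0.35, 0.115 and 0.978 CPM in WT NC; Mmp1b, whose exons overlap Mmp12 on the other strand, had no read in any library. Their promoters are shown because the cluster holds Mmp12 and Mmp13, the members with the largest fitted changes in WT CCl4 over WT NC, and its genes differ in a motif long known in this family. Each is 250 bases before to 50 after the RefSeq start (GRCm38.p6, plus strand), taken at the start nearest the gene start of the deposited table (at most 16 bases away in those shown). Mmp12 is also shown at its second RefSeq start, which lies 2993 bases from that gene start. Capitals mark AP-1 (TGANTCA), ETS (AGGAAG) and SMAD (CAGACA) matches on either strand, none overlapping another. Mmp13, Mmp12, Mmp8 and Mmp27 rose, and their neighbours Mmp3 and Mmp7 were not tested:

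Mmp13: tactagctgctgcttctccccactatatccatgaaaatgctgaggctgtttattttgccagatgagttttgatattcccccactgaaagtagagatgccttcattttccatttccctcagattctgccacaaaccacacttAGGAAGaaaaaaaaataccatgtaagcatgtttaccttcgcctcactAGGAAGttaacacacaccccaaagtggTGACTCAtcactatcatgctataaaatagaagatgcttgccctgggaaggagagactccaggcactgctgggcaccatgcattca
Mmp12: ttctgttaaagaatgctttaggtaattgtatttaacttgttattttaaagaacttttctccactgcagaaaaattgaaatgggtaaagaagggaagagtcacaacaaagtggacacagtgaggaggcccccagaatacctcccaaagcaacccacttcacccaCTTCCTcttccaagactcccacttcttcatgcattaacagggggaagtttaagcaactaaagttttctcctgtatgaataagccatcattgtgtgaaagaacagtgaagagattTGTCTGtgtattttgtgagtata
Mmp12, downstream start: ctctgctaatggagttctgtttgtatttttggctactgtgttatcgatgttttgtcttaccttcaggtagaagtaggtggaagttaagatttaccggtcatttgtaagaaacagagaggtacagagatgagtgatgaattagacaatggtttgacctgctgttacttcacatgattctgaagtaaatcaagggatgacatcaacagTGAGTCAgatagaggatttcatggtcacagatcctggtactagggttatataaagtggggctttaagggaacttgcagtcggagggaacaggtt
Mmp8: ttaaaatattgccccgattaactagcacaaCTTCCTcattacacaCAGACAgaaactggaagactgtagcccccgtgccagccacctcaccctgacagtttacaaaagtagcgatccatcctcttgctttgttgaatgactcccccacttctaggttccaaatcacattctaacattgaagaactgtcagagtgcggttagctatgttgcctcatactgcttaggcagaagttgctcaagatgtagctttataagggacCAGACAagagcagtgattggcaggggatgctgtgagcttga
Mmp27: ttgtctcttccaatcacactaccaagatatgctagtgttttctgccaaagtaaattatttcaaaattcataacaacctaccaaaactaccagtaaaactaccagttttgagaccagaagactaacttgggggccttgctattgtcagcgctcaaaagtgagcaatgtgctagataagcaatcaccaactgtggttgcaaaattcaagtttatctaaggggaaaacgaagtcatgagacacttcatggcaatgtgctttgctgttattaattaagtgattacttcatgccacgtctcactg
Mmp3: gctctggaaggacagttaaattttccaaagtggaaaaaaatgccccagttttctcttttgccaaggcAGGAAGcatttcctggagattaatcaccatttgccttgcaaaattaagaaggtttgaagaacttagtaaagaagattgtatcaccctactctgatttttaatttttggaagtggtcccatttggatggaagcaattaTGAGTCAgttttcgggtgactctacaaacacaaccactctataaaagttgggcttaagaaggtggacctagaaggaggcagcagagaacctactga
Mmp7: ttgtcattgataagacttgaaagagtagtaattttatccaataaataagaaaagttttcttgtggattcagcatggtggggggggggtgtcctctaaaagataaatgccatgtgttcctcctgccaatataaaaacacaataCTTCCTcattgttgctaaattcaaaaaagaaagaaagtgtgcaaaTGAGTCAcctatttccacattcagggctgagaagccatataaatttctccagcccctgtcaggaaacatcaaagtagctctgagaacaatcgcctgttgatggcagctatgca

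AP-1, the Fos and Jun factor pair, and ETS factors are textbook activators of metalloproteinase promoters, and SMAD proteins carry the TGF-beta signal. Positions count from the start site as 0, negative upstream, to the first base of a match. Mmp13 (chr9:7272264-7272563) holds AP-1 at -35 and ETS at -109 and -62. Mmp12 (chr9:7344147-7344446) holds ETS at -87 and SMAD at 27 at its upstream start, and AP-1 at -44 at the downstream one (chr9:7347124-7347423). Mmp8 (chr9:7558179-7558478) holds ETS at -220 and SMAD at -205 and 9, and Mmp27 (chr9:7571146-7571445) none of the 3 motifs. AP-1 stands at -46 in Mmp3 (chr9:7445572-7445871), and at -63 in Mmp7 (chr9:7691840-7692139). At the start nearest the table's, 7 of the 10 cluster genes have the AP-1 letters (Mmp1a, Mmp1b, Mmp10 and Mmp20 being the others), and 8 with the downstream start of Mmp12; of the 22 other members with a window 0 do, against 7.81% of 32851 promoter windows. The letters thus stand before Mmp13 and Mmp12, which rose most among the cluster's genes, and before all 6 genes of the cluster that were too low to test, and not in the windows of Mmp8 and Mmp27, which rose. ETS letters occur in 15 of the 32 members with a window (35.4% of all windows), and SMAD in 6 (21.0%). Members without a window are Adamts4, Adamts5, Adamts6, Adamts7, Adamts8, Adamts10, Adamts15, Adamts16, Adamts19, Mmp2, Mmp9, Mmp16, Mmp17 and Mmp19.

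**Figure D5:**
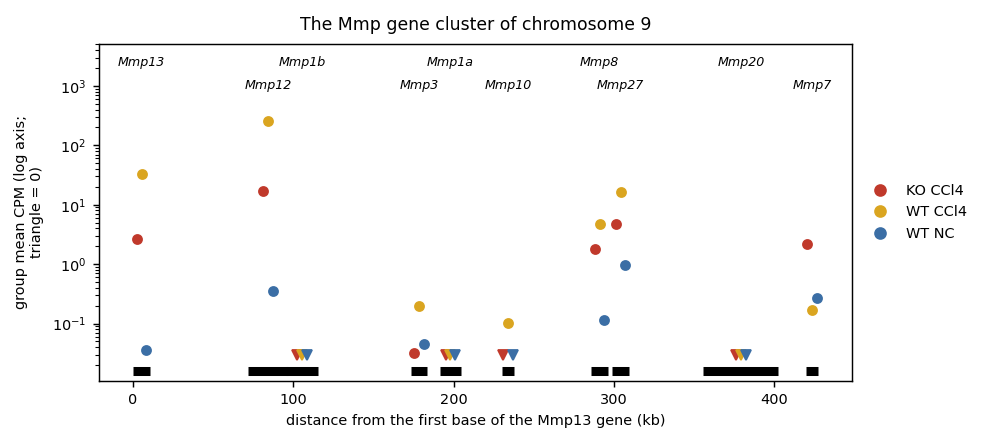
Group mean CPM (log axis, triangles at 0) of the 10 Mmp genes of the chromosome 9 cluster against distance from the start of Mmp13 in kb; black bars mark the genes. The 4 genes that rose in WT CCl4, Mmp13, Mmp12, Mmp8 and Mmp27, lie among others at or near 0, and the KO CCl4 mean of Mmp7 comes mostly from KO CCl4 75.

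Enzymes and inhibitors that switch these proteases on or off, or bind them, were read from a list of 50 genes, of which 44 were tested. In WT CCl4 over WT NC 24 rose and 9 fell, where 29.5% of all genes rose and 25.0% fell. In KO CCl4 against WT CCl4 3 rose and 5 fell, where 3.46% of all genes rose and 1.61% fell. Those lower in KO CCl4 included Plau, Plaur, Lrp2 and Thbs1, and the 3 higher were Lcn2, Serping1 and Sdc1. Plau, urokinase, which makes plasmin and so starts the activation of several pro-Mmp enzymes, had 2.15, 9.05 and 3.57 CPM in KO CCl4, against 125, 52.2 and 16.6 CPM in WT CCl4, and 1.20, 2.21 and 0.907 CPM in WT NC. Plaur, its receptor, had 1.73, 6.65 and 2.86 CPM in KO CCl4, against 74.4, 27.2 and 8.37 CPM in WT CCl4, and 0.199, 0.138 and 0.107 CPM in WT NC. All KO CCl4 libraries of both genes lay below all WT CCl4 libraries, KO CCl4 75 included. The WT CCl4 libraries kept the order 11 over 12 over 13 that every marker sum except those of hepatocytes and proliferation also had. The falls in KO CCl4 against WT CCl4 were -3.70 ± 0.77 for Plau (adjusted p = 0.0417) and -3.28 ± 0.76 for Plaur (adjusted p = 0.0474).

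Lcn2, a secreted carrier that binds Mmp9 and is an acute-phase product of hepatocytes, ran the other way. It had 531, 938 and 652 CPM in KO CCl4, against 138, 165 and 191 CPM in WT CCl4, and 5.85, 5.10 and 3.79 CPM in WT NC. The 3 groups were apart, with the highest level in KO CCl4, a rise of 2.10 ± 0.26 over WT CCl4 (adjusted p = 0.0125). Serping1, the C1 inhibitor, had 659, 423 and 631 CPM in KO CCl4, against 267, 266 and 261 CPM in WT CCl4, and 805, 806 and 687 CPM in WT NC, higher in KO CCl4 than in WT CCl4 by 1.11 ± 0.20 (adjusted p = 0.035). Adamtsl1, an Adamts-like protein without a protease domain, had 1.85, 3.11 and 2.31 CPM in KO CCl4, against 9.51, 5.48 and 5.37 CPM in WT CCl4, and 0.199, 0.138 and 0.64 CPM in WT NC, and rose in WT CCl4 over WT NC (4.29 ± 0.54, adjusted p = 0.000777). Reck, a membrane-anchored inhibitor of metalloproteinases, had 2.74, 4.10 and 3.85 CPM in KO CCl4, against 5.01, 6.02 and 5.42 CPM in WT CCl4, and 2.46, 2.34 and 2.56 CPM in WT NC. It rose in WT CCl4 over WT NC (1.16 ± 0.24, adjusted p = 0.004) and was between the other groups in KO CCl4, short of the threshold against WT CCl4 (-0.62, adjusted p = 0.117). A2m, which traps proteases in blood, was near 0, at 0.236 CPM or less in every library. Without KO CCl4 75, 11 of the 44 rose and 20 fell in KO CCl4 against WT CCl4, where 17.2% of all genes rose and 20.4% fell.

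Exons of some members overlap a gene on the other strand in GENCODE M21, and whether the authors' counting used strand is not given, so these values are less certain. Adamts4, Timp3, Mmp12 and Mmp19 are among them. Timp3 overlaps Syn3, which had 0.0943 to 0.775 CPM in KO CCl4, 0.316 to 0.593 CPM in WT CCl4 and 0.864 to 1.87 CPM in WT NC, far below Timp3. Mmp12 overlaps Mmp1b, at 0 throughout, and Mmp19 overlaps Tmem198b, at 3.13 to 8.55 CPM over the 9 libraries.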

How the data were processed

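The authors deposited 1 table of 9 liver libraries with whole-number counts per gene and FPKM, per the file headers. Reads were handled with HISAT2 2.0.4 and StringTie 1.3.0 per the submitters' processing notes, which name mm10 and GRCm38.p4. The sources used here do not state the counting tool, strand setting, annotation release or treatment of reads from several genes. In mm10 all 46 members' positions overlap the GENCODE M21 gene of the same identifier. Library totals were 16447353 to 20373585 counts, and 3 counts stood for 0.147 to 0.182 CPM. Mitochondrial genes took 19.3% to 21.0% of the counts in KO CCl4, 25.4% to 26.3% in WT CCl4 and 9.13% to 12.0% in WT NC. That share thus differed by group without overlap. Nothing in the labels says that each library is a separate animal; the spread behind a p-value is that between libraries and may be technical.

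Differences were tested on the deposited counts with edgeR 4.0.16 (R 4.3.3; TMM, filterByExpr, quasi-likelihood fit over all 9 libraries with a mean for each of the 3 groups) and Benjamini-Hochberg adjustment over 14134 genes, with a threshold of 0.05. The SE is the log2 fold change over the root of the F statistic. The test was also run on simulated counts, with no outcome given here, so nothing is concluded from it. In particular, it is no evidence on how the test does where libraries of a group are unlike each other, as the KO libraries were. CPM uses TMM-scaled library sizes; sums over genes use the authors' FPKM, which are per length. Intervals and floors cover counting error only.

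Values by library are given for the 4 Timp genes, for Mmp and Adamts genes that passed the test in either of the first 2 comparisons (WT CCl4 over WT NC, KO CCl4 over WT CCl4) at a group mean of 1 CPM or more, and for those with a mean of 1 FPKM or more in a group; for regulators, 5 named ones and the 3 smallest p of each of those comparisons. The members, the lists and the motifs were chosen with earlier results of these data known. Alternatives were DESeq2 1.42.0, its size factors, no filter, limma 3.58.1 on log2(FPKM + 1) or log2(FPKM + 0.1), the 6 libraries compared alone, a test against 1.5-fold, no mitochondrial genes, and each library left out. Promoters are RefSeq's (GRCm38.p6), found for 32 of 46 members by symbol, 3 of them with a second start. Some regulators and overlapping genes are not reported here.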

Additional observations from a re-analysis of the deposited data

How the results depend on the processing

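No paired analysis was possible because the groups share no replicate number. The count of 25 members higher in WT CCl4 over WT NC was 15 with limma on log2(FPKM + 1) and 15 on log2(FPKM + 0.1), which test fewer members, and 23 to 26 with a library left out, with 0 lower in each. For KO CCl4 against WT CCl4 the 4 lower were 12 with DESeq2, 2 with limma on log2(FPKM + 1) without a filter, 0 with only the 6 libraries compared and 1 against a fold change of 1.5; leaving out a library gave 0 to 19. That count was 19 without KO CCl4 75, 6 without WT CCl4 13, 1 without WT CCl4 11, WT NC 1, WT NC 2 or WT NC 3, and 0 without KO CCl4 72, KO CCl4 79 or WT CCl4 12; fewer libraries leave fewer degrees of freedom. The 0 higher in KO CCl4 was 1 with DESeq2 (Mmp7) and 0 with any library left out. For KO CCl4 over WT NC the 14 higher were 3 with limma on log2(FPKM + 1), 6 on log2(FPKM + 0.1), 1 without the filter and 6 against a fold change of 1.5. That count was 21 without KO CCl4 72, 7 without KO CCl4 75, 9 without KO CCl4 79 and 5 without WT NC 1, WT NC 2 or WT NC 3 (range 5 to 21), with 0 lower throughout. Beside these counts no share of all genes is given here, and limma on filtered FPKM tested 10987 genes against 14134 by edgeR. The counts thus show how far each one moved with the setting, and do not set the members against other genes. The cause was not tested where none is named.

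Signs of small differences turned: Mmp15 in KO CCl4 against WT CCl4 was 0.00033 with only the 6 libraries compared and 0.0126 without mitochondrial genes, and -0.31 to 0.30 with a library left out. Mmp2 there ranged over -1.59 to 0.27, and Adamts10 in KO CCl4 over WT NC over -0.14 to 0.81; none of these passed the test with all libraries. The log2 ratio of summed Mmp to Timp FPKM, with all genes, was 2.54 in KO CCl4, 1.26 in WT CCl4 and 2.51 in WT NC. Without Mmp19 it was 1.37 in KO CCl4, 0.64 in WT CCl4 and 1.35 in WT NC, and on CPM with all genes 2.07 in KO CCl4, 1.31 in WT CCl4 and 1.65 in WT NC. With all genes and a library left out it was 2.22 to 2.95 in KO CCl4, 1.12 to 1.40 in WT CCl4 and 2.43 to 2.65 in WT NC. Of 24 named members tested, values kept direction and side of the threshold in 199 of 200 other settings for WT CCl4 over WT NC, 178 of 200 for KO CCl4 against WT CCl4 and 164 of 197 for KO CCl4 over WT NC, and with a library left out in 208 of 216, 169 of 216 (6 reversed) and 175 of 215 (1 reversed), in the same order. On FPKM the median of all genes shifted to 0.21 for WT CCl4 over WT NC (0.04 by TMM) and to -0.19 for KO CCl4 against WT CCl4 (-0.03 by TMM). Depth limits the members under 1 CPM, where a few reads decide a level.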
